A study of Mus musculus with 2 samples.

Results

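Neurexins, neuroligins and the leucine-rich repeat transmembrane neuronal proteins (LRRTMs) are adhesion proteins that meet across the synaptic cleft. The 9 genes Nrxn2, Nrxn3, Nlgn1, Nlgn2, Nlgn3, Lrrtm1, Lrrtm2, Lrrtm3 and Lrrtm4 were taken by symbol from 55536 annotated genes, whatever their level. Neurexins sit in the presynaptic membrane, and each neurexin gene has separate promoters for a long alpha form and a short beta form that share their C-terminal part. Neuroligins and LRRTMs are postsynaptic partners of neurexins, and alternative exons in both partners tune which of them bind. The measurements below are of RNA, and give the level of each gene and the use of its annotated transcripts.

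The samples were pieces of left cerebral cortex from 2 females of strain B6CASTF1/J, a first-generation cross of C57BL/6 and CAST, taken at 25 days and used for total RNA sequencing. Neither animal was treated and neither carries a named mutation in the labels, so both belong to 1 group, as replicates 1 and 2. The input was 300 ng per library, to which ERCC control RNAs had been added. The labels number the animals 3 and 4 but cite the same donor for both, so the spread between the libraries is between animals only if those numbers are right.

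The libraries held 31301126 and 27182336 expected counts, which are read counts with reads that match several places divided between them. The libraries were not copies of each other: over 14577 protein-coding genes the chi-square per degree of freedom was 7.24, where sampling noise alone gives about 1. Levels are given in TPM, the length-corrected share of all transcripts, and each mean has its SD over both libraries (n = 2). With 1 library per animal no p-value can be given, since the smallest that an exact sign-flip test of 2 animals allows is 0.5. All 5 listed markers of cortical excitatory neurons and all 6 of inhibitory neurons reached 1 TPM in each library. So did all 6 of striatal neurons and all 3 of thalamus, against 2 of 4 for choroid plexus and 1 of 3 for cerebellar granule cells. Of 22015 nuclear protein-coding genes, 58.7% reached that level in both libraries. Summed TPM of the 5 myelinating oligodendrocyte markers was 1328 in replicate 1 and 2097 in replicate 2, that of the 6 striatal neuron markers 377.93 and 255.38, and that of the 4 choroid plexus markers 99.4 and 6.92, of which Ttr alone made 96.03 and 4.79. In tissue RNA, fewer cells of a type and less RNA per cell cannot be told apart.

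The exons below are the alternative coding stretches on which the transcript results turn, read 5′ to 3′ from the GENCODE M21 transcripts on mm10. The exon at splice site 4 (SS4) of the neurexins encodes an insert that blocks the binding of LRRTM proteins such as LRRTM2 and weakens that of neuroligins. In Nrxn3 it is 90 bases long, at chr12:90199147-90199236 on the plus strand, and is printed without capitals.
Nrxn3 SS4 exon: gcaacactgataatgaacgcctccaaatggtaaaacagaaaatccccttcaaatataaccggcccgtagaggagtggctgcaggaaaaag

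The neuroligin inserts at site A lie in the extracellular domain, and the short insert at site B of Nlgn1 is the one that restricts its binding to beta neurexins. The Nlgn1 A insert is 60 bases long (chr3:25920178-25920237, minus strand) and the B insert 27 bases (chr3:25439865-25439891, minus strand). Nlgn3 has a pair of alternative exons of 60 bases at this site, the first at chrX:101303072-101303131 and the second at chrX:101307075-101307134, both on the plus strand. The second Nlgn3 exon matched the Nlgn1 A insert at 43 of 60 bases (71.7%), and capitals in these 2 lines mark the 17 bases that differ. The first Nlgn3 exon matched the Nlgn1 insert at 16 of 60 bases (26.7%) and the second Nlgn3 exon at 19 (31.7%), and is printed without capitals. The Nlgn2 A insert is 51 bases long, at chr11:69830563-69830613 on the minus strand.
Nlgn1 A insert: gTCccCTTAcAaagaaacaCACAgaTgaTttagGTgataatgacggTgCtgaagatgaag
Nlgn3 second 60-base exon: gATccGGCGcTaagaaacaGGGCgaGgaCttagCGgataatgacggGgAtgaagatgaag
Nlgn3 first 60-base exon: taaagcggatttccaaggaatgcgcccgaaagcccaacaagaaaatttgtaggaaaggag
Nlgn2 A insert: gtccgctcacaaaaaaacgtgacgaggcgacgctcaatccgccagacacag
Nlgn1 B insert: gtaaccgttggagcaattcaaccaaag

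The beta neurexins begin at a start codon of their own inside the gene, followed by a coding stretch that no alpha transcript holds. Together with the exon bases before it, it sets beta transcripts apart, and the start codon is what classed them in the comparison below. The stretch spans 253 bases in Nrxn2 (chr19:6498279-6498531, plus strand) and 241 bases in Nrxn3 (chr12:89813400-89813640, plus strand), and capitals mark the start codon. Its GC content was 77.9% in Nrxn2 and 57.7% in Nrxn3.
Nrxn2 beta start: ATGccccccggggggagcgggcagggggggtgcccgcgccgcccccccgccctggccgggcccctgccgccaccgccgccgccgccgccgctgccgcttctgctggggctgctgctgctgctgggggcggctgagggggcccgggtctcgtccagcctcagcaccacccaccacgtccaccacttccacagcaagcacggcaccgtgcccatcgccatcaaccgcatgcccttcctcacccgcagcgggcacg
Nrxn3 beta start: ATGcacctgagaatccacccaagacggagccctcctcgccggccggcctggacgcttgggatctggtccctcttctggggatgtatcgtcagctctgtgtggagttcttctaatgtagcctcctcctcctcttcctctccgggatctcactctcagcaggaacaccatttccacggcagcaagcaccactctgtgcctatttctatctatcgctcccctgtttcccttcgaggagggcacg

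All 9 genes were expressed in both animals. In alignment-based TPM neurexins were highest per gene, neuroligins next and LRRTMs lowest. Each of the 9 passed a TPM of 1 in both libraries, as did 58.7% of 22015 nuclear protein-coding genes. The neurexin genes summed to 397 ± 7.16 TPM over 2 genes, the neuroligins to 236 ± 3.01 over 3 and the LRRTMs to 119 ± 1.30 over 4. Within the detected protein-coding genes they spanned the 60.9th percentile (Lrrtm2) to the 98.6th (Nrxn2).

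**Figure D1:**
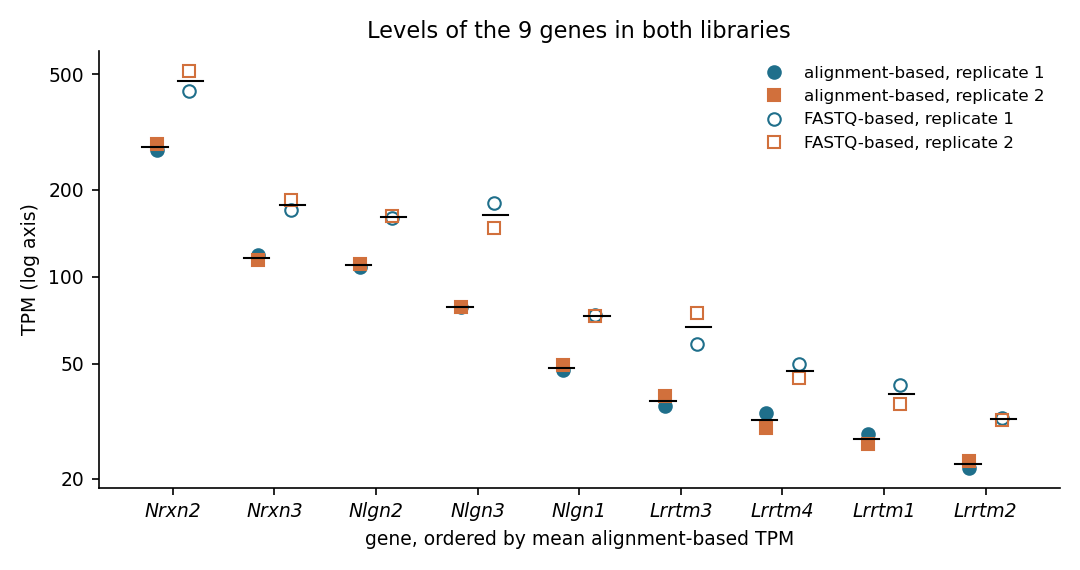
TPM of each gene on a log axis, filled symbols for the alignment-based and open symbols for the FASTQ-based quantification, circles for replicate 1, squares for replicate 2 and lines for means. Nrxn2 is highest in both quantifications, at 280.5 and 476 TPM on average, and Lrrtm2 is lowest at 22.5 and 32.2.

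Nrxn2 (ENSMUSG00000033768.17, mm10 chromosome 19, 6418731 to 6544169, plus strand) had 273.47 TPM in replicate 1 and 287.59 in replicate 2, from 18481 and 15487 expected counts. Nrxn3 (ENSMUSG00000066392.11, chromosome 12, 88722876 to 90334935, plus strand) had 118.37 and 114.38 TPM, from 11391 and 9598 counts. Nrxn2 was thus 2.31-fold and 2.51-fold higher than Nrxn3 in the separate libraries, a step larger than the spread of either. Nrxn3 spans 1612 kb of the genome and Nrxn2 125.4 kb.

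Among the neuroligins, Nlgn2, the member found at inhibitory synapses, was highest. Nlgn2 (ENSMUSG00000051790.15, chromosome 11, 69823122 to 69837784, minus strand) had 108.02 and 110.54 TPM, from 11261 and 9741 counts. Nlgn3 (ENSMUSG00000031302.16, chromosome X, 101299168 to 101325963, plus strand), which is found at both excitatory and inhibitory synapses, had 78.45 and 78.39. Nlgn1 (ENSMUSG00000063887.13, chromosome 3, 25426215 to 26332460, minus strand), the member of excitatory synapses, had 47.59 and 49.38. The order of the neuroligins was the same in both libraries, and none of their ranges overlapped.

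The LRRTM genes lay close together. Lrrtm3 (ENSMUSG00000042846.8, chromosome 10, 63928472 to 64090277, minus strand) had 35.87 TPM in replicate 1 and 38.63 in replicate 2. Lrrtm4 (ENSMUSG00000052581.13, chromosome 6, 80018877 to 80810143, plus strand), known as a partner of glypicans as well as neurexins, had 33.79 and 29.93. Lrrtm1 (ENSMUSG00000060780.2, chromosome 6, 77242689 to 77257791, plus strand) had 28.50 and 26.50, from 1465 and 1158 counts. Lrrtm2 (ENSMUSG00000071862.3, chromosome 18, 35209003 to 35215024, minus strand) had 21.83 and 23.09. A TPM of 3 counts, the most that a count of 0 allows, was 0.0584 and 0.0687 for Lrrtm1, so every LRRTM gene stood far above that floor.

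Sorted by mean TPM, 2 of the 8 neighbouring pairs were at least 1.5-fold apart in both libraries, Nrxn2 over Nrxn3 and Nlgn3 over Nlgn1. Nlgn3 exceeded Nlgn1 by 1.65-fold and 1.59-fold. Nrxn3 and Nlgn2 differed by 1.10-fold and 1.03-fold, a step close to the spread between the libraries. The steps from Nlgn2 to Nlgn3 (1.38-fold and 1.41-fold) and from Nlgn1 to Lrrtm3 (1.33-fold and 1.28-fold) had the same sign in both libraries but stayed under 1.5-fold. Among the LRRTM genes the steps ran from 1.06-fold to 1.31-fold, and the step from Lrrtm3 to Lrrtm4 moved from 1.06-fold to 1.29-fold between libraries.

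The FASTQ-based TPM of every one of the 9 genes was higher than the alignment-based value, by 1.37-fold (Lrrtm1, replicate 2) to 2.30-fold (Nlgn3, replicate 1). Over all detected protein-coding genes the median of this ratio was 1.55 in replicate 1 and 1.52 in replicate 2. The estimated counts behind both tables were close, with a ratio of 0.975 to 1.12 for these genes. In the FASTQ-based table Nlgn3 had 180.2 and 147 TPM and Nlgn2 had 160.1 and 162.5, so their order was not stable there. Nrxn3 had 170.2 and 184.4 TPM there, so it lay below Nlgn3 in replicate 1 only. Lrrtm3 had 58.5 and 75.0 TPM in that table, and its order with Nlgn1 (73.5 and 72.8) also changed between libraries.

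In alignment-based TPM, Nrxn2 had more beta than alpha RNA, and Nrxn3 more alpha than beta. Transcripts with a complete coding sequence were classed by their start codon, as 6 alpha and 2 beta transcripts of Nrxn2 and 1 alpha and 2 beta transcripts of Nrxn3. Alpha transcripts of Nrxn2 held 76.1 TPM in replicate 1 and 74.7 in replicate 2, and beta transcripts 119.3 and 116. For Nrxn3 the alpha transcript held 41.2 and 41.9 TPM, and beta transcripts 23.6 and 17.3. In neither gene did the alpha and beta values overlap.

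The alpha share of alpha plus beta TPM was 38.9% and 39.2% in Nrxn2 (39.1 ± 0.174%) and 63.6% and 70.8% in Nrxn3 (67.2 ± 5.07%). Set against each other, alpha RNA of Nrxn2 exceeded that of Nrxn3 by 1.85-fold and 1.78-fold, while beta RNA of Nrxn2 exceeded that of Nrxn3 by 5.06-fold and 6.70-fold. Summed over both genes, alignment-based beta TPM was 142.9 and 133.3 and alpha TPM 117.3 and 116.6. In FASTQ-based TPM the sums were 189.8 and 164.8 for beta and 180.4 and 168.8 for alpha, so their order turned in replicate 2. By expected counts alpha led, with 15662 and 13108 against 9891 and 7744. The most upstream start of the complete beta transcripts lies 79.1 kb downstream of that of the complete alpha transcripts in Nrxn2 and 1018 kb downstream in Nrxn3.

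The direction in Nrxn2 depended on the unit and on the transcripts counted. By share of expected counts, which does not divide by length, alpha held 51.4% and 51.7% in Nrxn2 and 82.3% and 87.1% in Nrxn3. In FASTQ-based TPM the alpha share was 43.9% and 44.6% in Nrxn2 and 63.3% and 69.6% in Nrxn3. With every transcript that has a coding sequence placed by its transcription start, it was 41.8% and 43.1% in Nrxn2. In Nrxn3 it was 71.6% and 77.9%. This wider set adds the fragment Nrxn2-209 to Nrxn2 alpha. To Nrxn3 alpha it adds Nrxn3-208 and Nrxn3-213, marked for nonsense-mediated decay, and Nrxn3-201 and Nrxn3-210, which start at an internal codon. The wider set in FASTQ-based TPM gave 46.5% and 52.6% in Nrxn2, where alpha led in replicate 2, and 72.4% and 78.0% in Nrxn3. Alpha transcripts of Nrxn2 are 5001 to 6667 bases long and its beta transcripts 3285 and 3503, so the same reads weigh more per molecule on the beta side. In each of these units, in both libraries, the alpha share was higher in Nrxn3 than in Nrxn2.

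**Figure D2:**
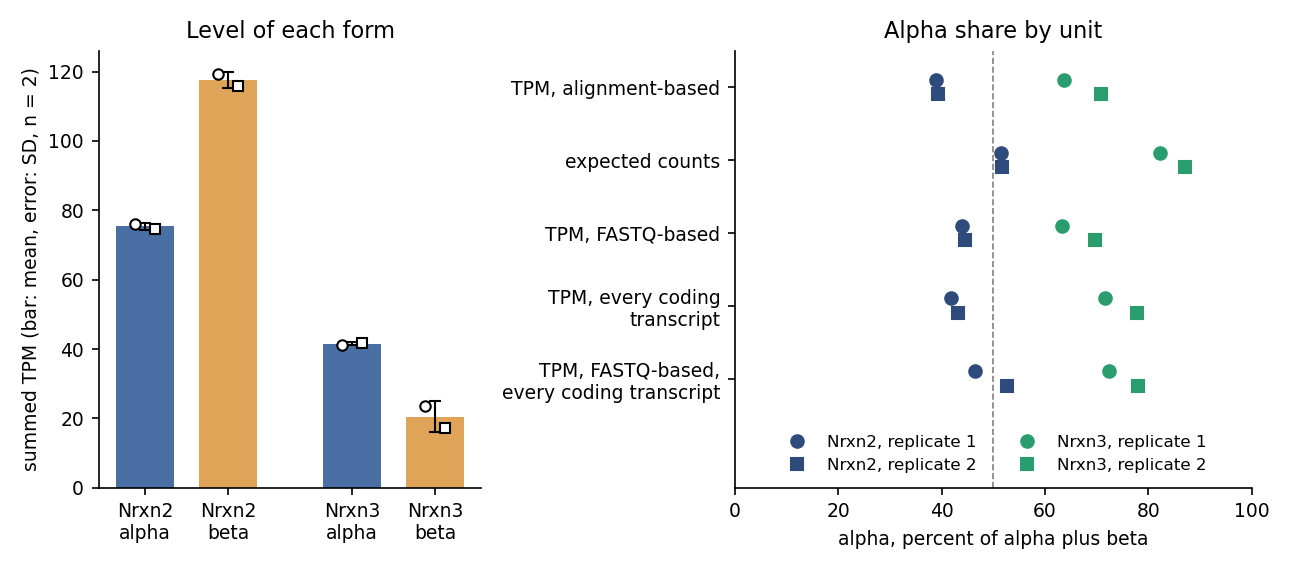
Left, summed TPM of alpha and beta transcripts (bars, means with SD, n = 2; circles, replicate 1; squares, replicate 2); right, alpha as a percent of alpha plus beta by unit and by the transcripts counted, with a dashed line at 50%. Nrxn2 lies at 51.4% and 51.7% in counts, on both sides of the line in the last row and left of it in the other rows, and Nrxn3 lies right of it in every row.

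A single transcript made nearly all Nrxn2 beta RNA. Nrxn2-202, a beta transcript that holds the SS4 exon, had 119.2 and 115.7 TPM, which was 43.6% and 40.2% of the gene. The other beta transcript, Nrxn2-203, lacks that exon, ends in a different last exon and had 6.48 and 13.2 expected counts. The beta share with SS4 was therefore 99.9% and 99.8%, but because Nrxn2-203 differs in its last exon as well, beta RNA that lacks only SS4 has no entry of its own in this annotation.

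Nrxn2 alpha RNA was split. Nrxn2-204, which lacks the SS4 exon as well as exons of 72 and 27 bases, had 43.8 and 46.4 TPM and Nrxn2-201, which holds all of them, had 30.2 and 22.2. The share of alpha TPM with the SS4 exon was 42.4% and 37.9% (40.1 ± 3.22%), and that share is the same for the 72-base and 27-base exons because the annotation joins them in the same transcripts. The share was 44.9% and 40.6% by expected counts and 47.2% and 44.6% in FASTQ-based TPM. Nrxn2-201 and Nrxn2-204 also differ in their last exons, of 1373 and 1011 bases, and in coding length, 4509 against 4920 bases. The share thus does not compare transcripts that differ in these 3 exons alone. The estimate for Nrxn2-201 carried a posterior SD, the authors' error of the read assignment within a library, of 292 counts on 3741 in replicate 1 and of 228 on 2314 in replicate 2. Nrxn2-205, a longer alpha transcript that also holds these 3 exons, had 98.8 and 402 alignment-based counts. Its posterior SD was 293 in each library, so in that table its level was not resolved from 0. The FASTQ-based table gave it 882 and 1420 estimated counts, so its level depended on the quantification.

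Short non-coding transcripts of Nrxn2 also passed 10% of the gene in some table. Nrxn2-213, with 576 bases, had 38.1 and 45.2 TPM (13.9% and 15.7%) but only 2.04% and 2.43% of expected counts. Nrxn2-211 held 4.58% and 6.31% of TPM, and 2.08% and 13.2% in the FASTQ-based table. Nrxn2-217 held 3.28% and 3.00%, and 10.5% and 7.50%. Transcripts under 900 bases together made 26.9% and 31.0% of Nrxn2 TPM and 4.24% and 5.08% of its counts, so the gene's TPM rests in part on short entries.

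Nrxn3 was led by its alpha transcript. Nrxn3-205, the complete alpha transcript with the SS4 exon, had 41.2 and 41.9 TPM, which was 34.8% and 36.6% of the gene's TPM and 58.9% and 59.7% of its counts. No complete alpha transcript without SS4 is annotated for this gene, so SS4 use in Nrxn3 alpha cannot be read from these tables. Transcripts that start at an internal codon between the alpha and beta starts, Nrxn3-201 and Nrxn3-210, summed to 3.04 and 2.27 TPM.

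In alignment-based TPM, Nrxn3 beta RNA was mostly without SS4. Nrxn3-203, which lacks the exon, had 15.3 and 13.7 TPM, and Nrxn3-202, which holds it, had 8.27 and 3.63. The share with SS4 was 35.0% in replicate 1 and 21% in replicate 2 (28.0 ± 9.94%). The 99.9% and 99.8% in Nrxn2 beta cannot be compared with it, since no Nrxn2 beta entry lacks SS4 alone. By counts the Nrxn3 share was 42.5% and 26.6%, and in FASTQ-based TPM 53.1% and 42.2%. In replicate 1 the side that leads thus depended on the quantification. Nrxn3-202 had 612 counts with a posterior SD of 113 in replicate 1 and 225 with 57.2 in replicate 2. These Nrxn3 transcripts also end in different last exons, of 1656 bases with SS4 and 791 bases without.

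Transcripts from the most upstream first exon of Nrxn3, ahead of the annotated alpha promoter, held 27.3% and 32.9% of the gene's TPM. None of them is annotated as protein-coding. The main one, the retained-intron transcript Nrxn3-204, had 15.2 and 17.5 TPM, and Nrxn3-208 and Nrxn3-213, both marked for nonsense-mediated decay, together with it account for most of that share. Nonsense-mediated decay transcripts held 12.8% and 14.6% of Nrxn3 TPM. The short non-coding Nrxn3-211 held 8.43% and 7.18% of TPM (4.84% and 11.4% in the FASTQ-based table) and Nrxn3-207 held 3.81% and 4.32% (7.99% and 11.0%).

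**Figure D3:**
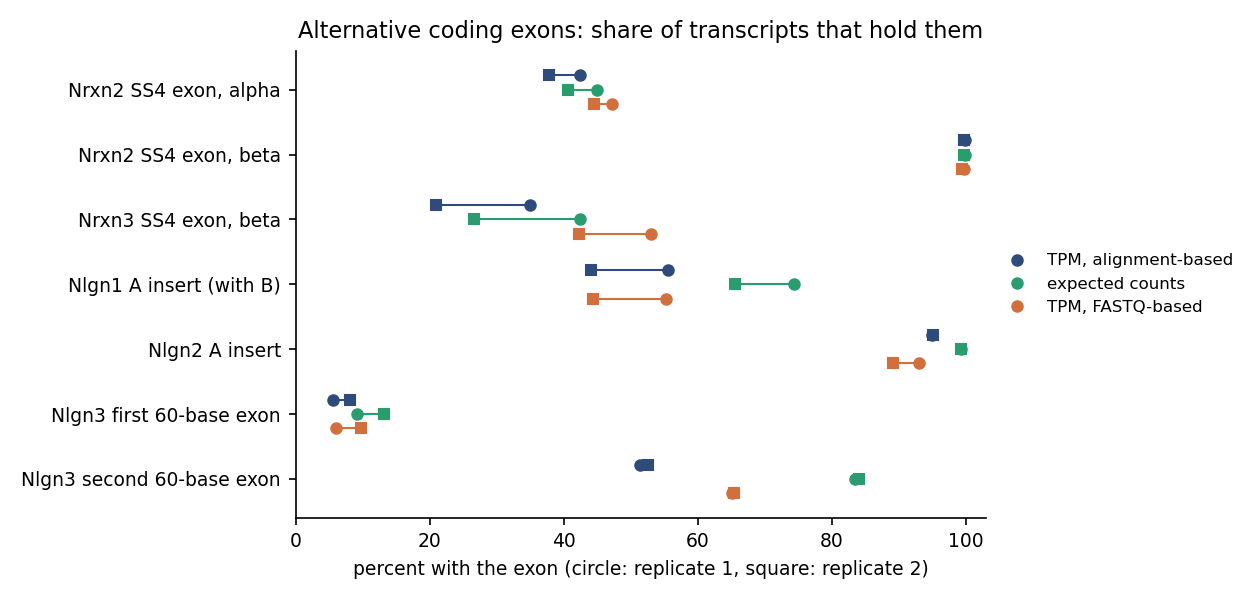
Percent of the compared transcripts that hold each alternative exon, by library (circle, replicate 1; square, replicate 2) and by unit (color). Nrxn2 beta, with no entry that lacks SS4 alone, sits between 99.48% and 99.92%, and Nrxn3 beta between 21% and 53.1%. The Nlgn3 second exon moves from 52.0% to 83.8% on average between TPM and counts.

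In TPM, Nlgn1 was divided about evenly between annotated forms with and without its inserts, but these forms also differ at their ends. In the annotation the A and B inserts travel together: Nlgn1-201 and Nlgn1-205 hold both, and Nlgn1-202 and Nlgn1-203 hold neither. Forms with both inserts made 55.6% of complete coding TPM in replicate 1 and 44.0% in replicate 2 (49.8 ± 8.16%), so no form led beyond the spread of the libraries. By expected counts the share was 74.4% and 65.5%. Nlgn1-203, the larger form without inserts, has a start of its own and a last exon of 1030 bases. Nlgn1-201 and Nlgn1-202 share their start and a last exon of 2650 bases. Nlgn1-201 had 12.6 and 8.84 TPM and Nlgn1-202 had 0.32 and 2.93. The counts of Nlgn1-202 were 28 and 214, with a posterior SD of 113 and 128. The even split is thus not a measure of insert use alone. The transcript behind the gap between TPM and counts is Nlgn1-205, which is 11807 bases long with a last exon of 8246 bases. It held 14.0% and 13.7% of the gene's TPM but 35.8% and 35.4% of its counts.

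Nlgn1-203 led the gene in alignment-based TPM with 15.1 and 16.9, or 31.7% and 34.2%. Nlgn1-204, a retained-intron transcript, followed with 12.9 and 14.0 TPM, or 27.2% and 28.3%, and led in the FASTQ-based table with 29.9% and 30.6%. Nlgn1-201 had 12.6 and 8.84 TPM. Of the complete transcripts, the one from the most upstream first exon, Nlgn1-205, held 19.3% and 19.1%.

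Nlgn2 was led by 1 transcript. Nlgn2-202, from the upstream first exon, had 79.0 and 87.5 TPM, or 73.1% and 79.1% of the gene, and Nlgn2-201, from the downstream first exon, had 21.5 and 15.3. Both encode the same 2508 coding bases and hold the A insert. The fragment Nlgn2-203 lacks the insert and had 5.26 and 5.34 TPM but 75.0 and 63.9 counts, which put the share with the insert at 95% and 95.1% of TPM and at 99.3% of counts on average. Between the first exons, the upstream one held 78.6% and 85.1% of complete TPM, and 62.1% and 72.5% in the FASTQ-based table.

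In Nlgn3 the second 60-base exon was used far more than the first. Nlgn3-201, with the second exon, had 34.55 and 33.34 TPM, and Nlgn3-206, with both, had 4.30 and 6.10. The share of coding TPM with the first exon was 5.60% and 8.13%, and that with the second was 51.4% and 52.6%. The rest was the fragment Nlgn3-203, which holds neither exon, is 1852 bases long and had 37.3 and 35.6 TPM, or 47.6% and 45.4% of the gene. By counts this fragment held 16.5% and 15.8%, and the share with the second exon was then 83.5% and 84.1%. Short non-coding Nlgn3-205 held 1.25% and 1.76% of alignment-based TPM, but 35.3% and 33.9% in the FASTQ-based table. Nlgn3-204 held 0.867% and 2.51%, and 16.4% and 8.85% in the FASTQ-based table.

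Among LRRTM genes, Lrrtm1 and Lrrtm2 each had 1 dominant coding transcript. Lrrtm1-202 had 19.4 and 17.8 TPM, or 68.1% and 67.2% of the gene, followed by Lrrtm1-203 with 23.8% and 17.6% and the nonsense-mediated decay transcript Lrrtm1-201 with 8.04% and 15.2%. All of these are annotated with 1566 coding bases. Lrrtm2-201 had 17.7 and 19.4 TPM, or 81.1% and 83.9%, and the retained-intron Lrrtm2-202 held 8.29% and 11.0%. The shorter coding transcript Lrrtm2-203 held 10.6% and 5.07%.

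Lrrtm3 was divided between its coding transcript and a retained-intron transcript. Lrrtm3-201, the coding form, had 15.6 and 14.2 TPM and Lrrtm3-204, the retained-intron form, had 15.8 and 18.3. Their order turned by counts, with 60.5% and 54.5% for Lrrtm3-201 and 37.6% and 42.8% for Lrrtm3-204. The short Lrrtm3-202, with 545 bases, held 7.06% and 14.3% of alignment-based TPM and 21.6% and 37.0% of FASTQ-based TPM, where it led the gene in replicate 2.

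Lrrtm4 RNA was spread over forms with different C-terminal ends. Transcripts that run to a distant last exon, Lrrtm4-203, Lrrtm4-205 and Lrrtm4-208, encode up to 1773 bases, and those that end next to the main coding exon, Lrrtm4-201, Lrrtm4-202 and Lrrtm4-206, up to 1557. The distant end held 58.5% and 52.5% of complete TPM (55.5 ± 4.26%) and 49.2% and 43.0% of counts, so neither end led across units. Lrrtm4-208 had 11.5 and 11.7 TPM, or 34.2% and 39.2% of the gene, and Lrrtm4-206 had 7.12 and 9.20, or 21.1% and 30.7%. Of the smaller transcripts, Lrrtm4-205 held 13.8% and 9.63%, Lrrtm4-201 13.0% and 6.42%, and the fragment Lrrtm4-204 11.3% and 2.71%. Lrrtm4-202 and the fragment Lrrtm4-207 passed 10% only in the FASTQ-based table, with 19.3% and 18.0% and with 19.5% and 14.2%. In that table Lrrtm4-201 held 0.00233% and 0.169%, and Lrrtm4-204 was listed at 0 in both libraries, so the smaller Lrrtm4 forms depended on the quantification.

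Across the 9 genes, 3 had a transcript with at least 50% of TPM in both libraries, Lrrtm1, Lrrtm2 and Nlgn2. Over 11710 detected protein-coding genes with several transcripts, 63.1% did. By share of counts 6 of the 9 passed, with Lrrtm3, Nlgn3 and Nrxn3 added, but no share over all genes was computed by counts. In the alignment-based table alone, for which no such share was computed either, all 9 genes had the same leading transcript in replicates 1 and 2. For 6 it was also the leader in both FASTQ-based libraries, which held for 64.2% of the 11710 genes. Lrrtm3, Nlgn1 and Nlgn3 were the exceptions. The 9 genes have 65 annotated transcripts, of which 33 have a complete coding sequence and 5 were at 0 counts in both alignment-based libraries.

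**Figure D4:**
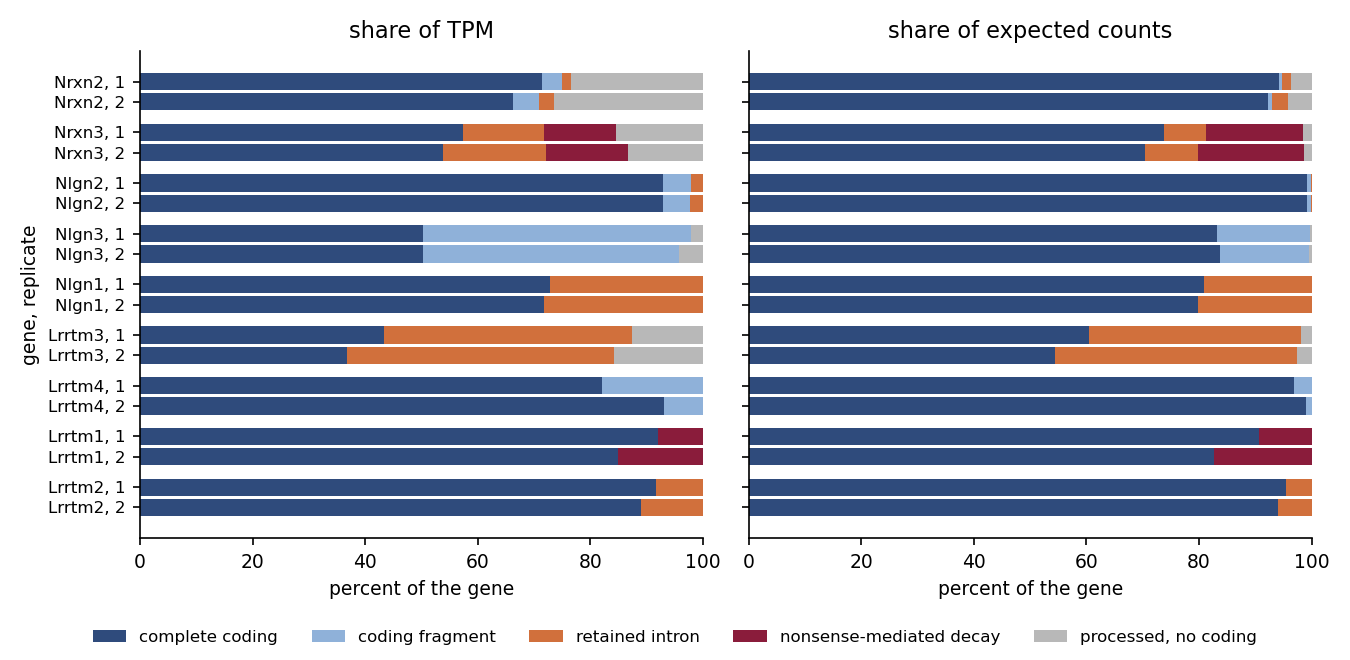
Percent of each gene in 5 annotation classes, 1 bar per library, as share of TPM (left) and of expected counts (right). Complete coding transcripts make 40.1% of Lrrtm3 TPM and 92.9% of Nlgn2 TPM on average, and the Nlgn3 fragment class shrinks from 46.5% to 16.2% between the panels.

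The share of TPM in complete coding transcripts was highest in Nlgn2 (92.9 ± 0.0144%) and lowest in Lrrtm3 (40.1 ± 4.61%). Retained-intron transcripts held 45.6 ± 2.36% in Lrrtm3, 27.7 ± 0.764% in Nlgn1 and 16.4 ± 2.70% in Nrxn3, and none is annotated in Lrrtm1, Lrrtm4 or Nlgn3. The libraries were made from total RNA, which holds unspliced RNA too, and its part in these shares was not tested.

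Several of the 9 genes overlap others. Lrrtm1, Lrrtm2 and Lrrtm3 each lie inside a catenin gene on the opposite strand, Ctnna2, Ctnna1 and Ctnna3. Ctnna2 had 53.33 and 58.17 TPM and Ctnna1 20.60 and 23.80, while Ctnna3 had 0.930 and 1.26, from 68.0 and 77.0 counts. Whether the counting used strand is not given in the sources used here, so reads from intronic Ctnna RNA in the LRRTM exons cannot be told apart from LRRTM reads.

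None of the 9 genes differed between the animals by 1.5-fold, whereas 0.91% of 11096 protein-coding genes with a mean of at least 5 CPM (counts corrected for library size only) did. Of those genes, 0.342% were higher by that fold in replicate 2 and 0.568% in replicate 1. On the log2(CPM + 1) scale, replicate 2 minus replicate 1 ran from -0.13 in Lrrtm1 to 0.07 in Lrrtm2. Of the 9 values 7 were below 0, as were 49.8% of those of the 11096 genes. In TPM 4 of the 9 were below 0, with a median of all genes of 0.05. With the TMM or DESeq2 scaling described below 8 were, with a median of -0.04 in each. The middle 95% of the 11096 genes lay between -0.30 and 0.35. The median absolute difference was 0.04 for the 9 genes and 0.08 for all 11096. The 9 genes had mean CPM from 44.9 (Lrrtm1) to 582 (Nrxn2), while the 11096 reach down to 5. These medians are thus not of genes at like levels.

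Counting error alone allowed only small shifts. The CPM ratio of replicate 2 over replicate 1 was 0.965 for Nrxn2, with an exact 95% binomial interval of 0.945 to 0.986, and 0.910 for Lrrtm1, with 0.842 to 0.984. The intervals of 4 genes, Nrxn2, Nrxn3, Nlgn3 and Lrrtm1, left out 1, and they cover counting error only. The share of all genes with such an interval was not computed, so these 4 cannot be set against a background. Lrrtm4 had a ratio of 1.00, with 0.940 to 1.07, beside TPM values of 33.79 and 29.93. The effective length by which its TPM was divided was 2725 bases in replicate 1 and 3195 in replicate 2. With the libraries scaled by summed ERCC counts, all 9 values were below 0, and the median of all genes was then -0.10.

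**Figure D5:**
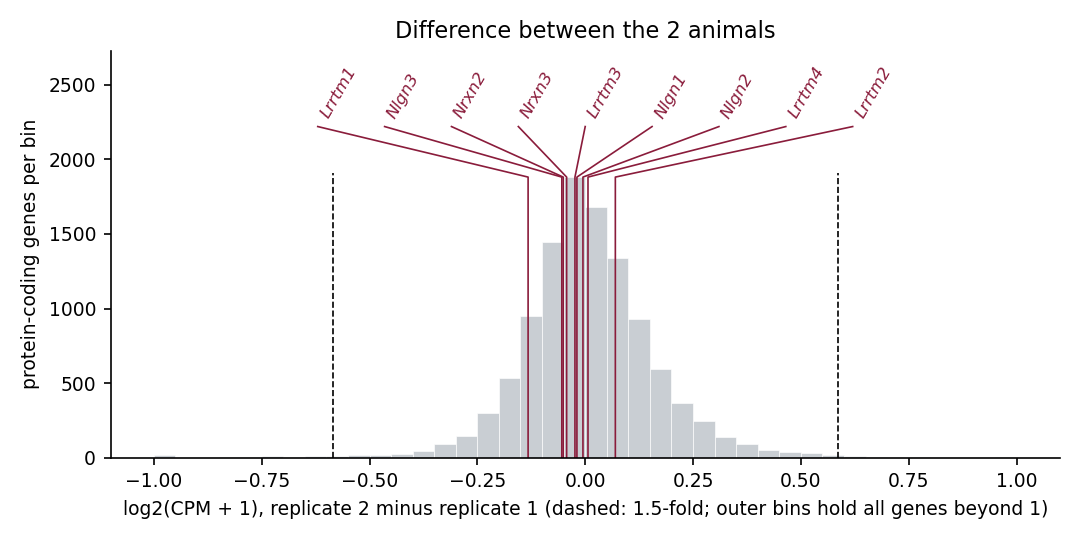
Histogram of replicate 2 minus replicate 1 on the log2(CPM + 1) scale for 11096 protein-coding genes, with the 9 genes as red lines and 1.5-fold as dashed lines. The 9 genes lie between -0.13 and 0.07, inside the bulk of the histogram.

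Genes that act with or on neurexins and neuroligins, other synaptic organizers, and the catenin genes that hold LRRTM genes were listed by role. The 8 lists held 63 genes, and 61 of them passed a TPM of 1 in both libraries, as did 58.7% of 22015 nuclear protein-coding genes. Of 11 secreted neurexin ligands 10 were detected, led by C1ql3 (45.30 and 44.19 TPM) and Cbln2 (20.40 and 21.25), with a list median of 6.87 TPM. All 8 membrane partners were detected, led by the calsyntenin Clstn1 (597 and 665 TPM) and the latrophilin Adgrl1 (189.20 and 200.35), with a median of 79.4. The median of the 9 genes themselves was 48.5 TPM. Secreted ligands thus lay low and membrane partners high among detected genes, with medians at percentiles 26.2 and 90.4.

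Inside the cell, the postsynaptic scaffold Dlg4, which encodes PSD-95 and binds neuroligins, had 416 and 428 TPM, and Dlg2 had 141.85 and 155.68. All 7 genes of that list and all 6 presynaptic scaffolds were detected, the latter led by Apba2 (108.07 and 107.68 TPM) and Lin7b (76.89 and 80.53). The neuroligin-binding inhibitors and cleavage enzymes were lower, led by Adam10 (31.16 and 30.66) and Mdga2 (25.89 and 31.02). Among 18 other synaptic organizers, Ptprs (270.66 and 322.06 TPM), a receptor phosphatase, and Cadm3 (186.62 and 193) were highest, and all 18 were detected.

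Regulators of neurexin splicing were all expressed, 7 of 7. Rbfox1 had 149.63 and 153 TPM and Khdrbs3, whose protein SLM2 promotes skipping of the SS4 exon, had 127.10 and 146.26. Khdrbs2, which encodes the related SLM1, was lowest at 5.83 and 7.29.

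Of 58 role genes with a mean of at least 5 CPM, 2 differed by 1.5-fold between the animals, both secreted ligands and both higher in replicate 2. Of all 11096 protein-coding genes at that mean, 0.91% differed by that fold, and 0.342% were higher in replicate 2. Nxph3, a neurexophilin that binds alpha neurexins, had 8.94 and 17.46 TPM (0.86 on the log2 scale). Cbln1, a cerebellin that joins beta or alpha neurexins with SS4 to glutamate delta receptors, had 3.30 and 6.03 (0.69). The summed marker levels of oligodendrocytes, striatal neurons and choroid plexus given above also differed between these libraries, and their part in the ligand differences was not tested.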

How the data were processed

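Per the file headers, the authors deposited for each library an alignment-based gene table (expected count, TPM and FPKM), an alignment-based transcript table (expected count, TPM, each transcript's percent of its gene, and the posterior SD of the count) and a FASTQ-based transcript table (estimated count and TPM). Per the files' own descriptions these use mm10 and GENCODE M21, but the sources used here name neither aligner nor quantifier.

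Genes were found by symbol in the FASTQ-based table and linked by gene identifier. The genes and lists were chosen with earlier results of these data known. Named are the 9 genes, each of their transcripts with at least 10% of the gene's TPM in any table (39), and in each role list the 2 highest genes and any past 1.5-fold between animals. Entries with only a number (26248) took 6.39e-06% and 1.81e-05% of expected counts and were left out. Expected counts were rounded for CPM. Scaling used edgeR 4.0.16 (TMM) and DESeq2 1.42.0 (size factors) in R 4.3.3 as alternatives, and Python 3.11.15 with pandas 2.3.3 and scipy 1.17.1 did the rest. Calculations were tested on simulated data. Fold calls use log2(CPM + 1), which understates differences of low genes. Alternatives changed the quantification, unit, scaling, pseudocount, filter, transcripts counted and library.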

Additional observations from a re-analysis of the deposited data

How the results depend on the processing

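All 9 genes were detected, and none passed 1.5-fold between the animals, under every alternative tried. The number with a leading transcript of at least 50% was 3, and 6 by share of expected counts and 6 with protein-coding transcripts only. The share over all genes was computed for the first of these only. The alpha share of Nrxn2 was 39.1%, and 38.9% to 39.2% with either library left out. It moved to 44.2% in the FASTQ-based table and 51.6% by expected counts. With every transcript that has a coding sequence it was 42.5%, and 49.6% for that set in the FASTQ-based table. The alpha share of Nrxn3 was 67.2%, and 63.6% to 70.8% with either library left out. It moved to 84.7% by expected counts. With every transcript that has a coding sequence, those marked for nonsense-mediated decay included, it was 74.7%. For that set in the FASTQ-based table it was 75.2%. Neighbouring genes at least 1.5-fold apart numbered 2, and 3 by CPM. Without a minimum CPM, 236 of all genes passed 1.5-fold in place of 101. Alternatives chosen after seeing the data were the FASTQ-based levels of the genes and the exon shares by count and by FASTQ-based TPM. The alpha share over every transcript with a coding sequence in the FASTQ-based table was another. No paired analysis was possible because the samples form 1 group. Reads of the CAST chromosomes were counted against mm10, and the effect of that was not tested. Annotated transcripts join exons that may be spliced separately, so a share of one exon holds only for the combinations listed.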
